A study of Homo sapiens with 2 samples.

Results

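DDIT4, RHEB, RRAGC and MTOR encode the kinase of mTOR complex 1, GTPases that switch it on and an inhibitor that hypoxia induces. They are 4 of the 14884 genes with a named transcript cluster on the arrays, and each was found by its gene symbol in the probe table. They were chosen with the difference between the arrays in view, so their levels and differences are given as a description, with no test. The study measured RNA of MDA-MB-231, an established human breast cancer cell line, on 2 Affymetrix arrays. Cells of one group were given a miR-544 antagomir, that is, an oligonucleotide antagonist of miR-544, and those of the other group compound 1; both agents were added 24 hours before 5 days at below 1% oxygen. Both groups thus share the hypoxia, and neither untreated nor normoxic cells were analysed here. Each group is 1 array, hybridised after samples were pooled, so no replicate error and no p-value exists, and treatment cannot be told apart from pool or hybridisation.

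In cells, mTOR complex 1 senses nutrients, growth factors and oxygen at the surface of the lysosome and drives protein and lipid synthesis. RHEB, when loaded with GTP, activates the kinase, and the TSC complex turns RHEB off. Rag GTPases, among them RRAGC, bring the complex to the lysosome when amino acids are plentiful. DDIT4, also called REDD1, is induced by low oxygen and by stress and acts through the TSC complex to restrain mTOR complex 1.

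The microRNA that the antagomir blocks is named without its a or b form, and the 2 human forms in RefSeq (GRCh38.p14) are shown because the treatment is defined by them. Capitals mark the seed, bases 2 to 8, and the forms do not share it.
hsa-miR-544a: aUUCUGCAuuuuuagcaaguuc
hsa-miR-544b: aCCUGAGGuugugcauuucuaa
Their precursor genes lay below the entry level of 5.60 (log2) on both arrays, MIR544A at 4.78 (antagomir) and 4.83 (compound 1), and MIR544B at 3.52 and 3.60 in that order.

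The promoters of the 3 genes with a difference past 1.2-fold are shown as the 250 bases before the RefSeq start, since hypoxia was common to both arrays and DDIT4 is a gene that low oxygen induces. Capitals mark the core of the hypoxia response element, ACGTG or GCGTG on either strand.
DDIT4, chr10:72273674-72273923, plus strand: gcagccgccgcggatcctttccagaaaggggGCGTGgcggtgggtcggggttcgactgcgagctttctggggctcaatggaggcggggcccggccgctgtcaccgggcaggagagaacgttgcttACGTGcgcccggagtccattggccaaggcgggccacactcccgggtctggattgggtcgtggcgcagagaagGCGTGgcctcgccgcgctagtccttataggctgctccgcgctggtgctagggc
RHEB, chr7:151519896-151520145, minus strand: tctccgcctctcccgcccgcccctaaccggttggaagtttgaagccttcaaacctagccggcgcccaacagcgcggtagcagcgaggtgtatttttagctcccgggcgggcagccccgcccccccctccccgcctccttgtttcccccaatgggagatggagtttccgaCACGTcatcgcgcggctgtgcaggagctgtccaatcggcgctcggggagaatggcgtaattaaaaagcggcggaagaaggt
RRAGC, chr1:38859773-38860022, minus strand: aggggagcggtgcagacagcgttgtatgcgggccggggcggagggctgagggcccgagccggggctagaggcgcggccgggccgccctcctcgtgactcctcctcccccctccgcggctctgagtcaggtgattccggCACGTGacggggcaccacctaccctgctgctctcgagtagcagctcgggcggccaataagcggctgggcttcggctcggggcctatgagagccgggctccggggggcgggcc

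The DDIT4 window held 3 matches to the hypoxia core: ACGTG from 125 to 121 bases before the start, and GCGTG from 219 to 215 and from 53 to 49 bases before it. Of 15843 protein-coding promoters of the same length, 50.5% held at least 1 match and 10.2% held 3 or more. The RHEB window held 1 match, on the opposite strand, and the MTOR window (chr1:11262552-11262801, minus strand) held 1, GCGTG from 148 to 144 bases before the start. In the RRAGC window the core was read on both strands of a single palindrome, CACGTG, which counts as 2 matches; 24.3% of promoters held 2 or more. That palindrome is part of CACGTGAC, a core of the motif bound by TFEB at lysosomal genes, which stood from 112 to 105 bases before the RRAGC start, in 3.13% of all promoters and in none of the other 3 windows. The motif CCAAT, searched on both strands, occurred in all 4 windows (2 in DDIT4, 2 in RHEB, 1 in RRAGC and 3 in MTOR) and in 34.5% of promoters. Neither the response element TGATGNAA of ATF4 (2.21% of promoters) nor the cAMP response element TGACGTCA (2.32%) was in any of these windows. Bases G and C made up 68.8% of the DDIT4 window, 63.2% of RHEB, 73.6% of RRAGC and 55.6% of MTOR. The median over these promoters was 62.4%, and the shares of promoters with a match are not matched for this. These matches describe the letters, and binding was not measured.

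Each gene had 1 named cluster: 16705961 for DDIT4, 17064544 for RHEB, 16685596 for RRAGC and 16681661 for MTOR. All 4 entered the comparison, which needs the higher of both values to reach 5.60. Cluster signals depend on the probes, so a signal is compared between the arrays and not between genes. In bulk RNA, a change in the RNA per cell and a change in how many cells hold the transcript cannot be told apart.

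With the antagomir DDIT4 had a log2 signal of 10.32, and with compound 1 it had 9.53. It was lower on the compound 1 array by 0.79 (size of the difference), or 1.73-fold, so the compound 1 signal was 57.7% of the antagomir signal. Of all 10887 measured genes, 9 had a lower difference, 4 of them protein-coding. At its own signal, within 0.5 of its mean of 9.93, there were 937 genes including DDIT4, and 0 of them had a lower difference. The differences of these genes had a median of -0.086 and a central 95% from -0.34 to 0.18, which places DDIT4 well below the range of genes of like signal on these arrays. After quantile normalization, which gives both arrays the same distribution, the difference was -0.72, with 22 genes lower.

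RHEB, the GTPase that activates the kinase, had a log2 signal of 6.97 with the antagomir and 6.49 with compound 1. The difference was -0.48, with the compound 1 signal at 71.7% of the antagomir signal (1.40-fold). Differences below this were held by 127 of the 10887 genes. Genes at its signal varied more than those at the signal of DDIT4: among 2921 genes within 0.5 of its mean, the central 95% ran from -0.43 to 0.37, and 38 had a lower difference. RHEB was thus just below that range. RefSeq lists the pseudogenes RHEBP1, RHEBP2 and RHEBP3, which have no named cluster here, and whether their transcripts reach the RHEB probes was not tested.

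RRAGC, the GTPase that partners RRAGA or RRAGB on the lysosome, was the member higher past 1.2-fold on the compound 1 array. It stood at 8.12 with the antagomir and 8.39 with compound 1, a difference of 0.27 (1.21-fold). Higher differences were held by 621 genes, 5.70% of those measured. Among 2101 genes of like signal the central 95% ran from -0.39 to 0.25, and 40 were higher. RRAGC therefore lay just above that range, and after centring each array on its median its difference was 0.24, below 1.2-fold.

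MTOR, the kinase itself, had 9.05 with the antagomir and 9.06 with compound 1. The difference of 0.0090 was small beside the central 95% of genes of like signal, -0.33 to 0.22, and 1510 of those 1589 genes had a difference at least as large in size. Its sign changed with the scaling: centring gave -0.020, quantile normalization 0.084 and cyclic loess 0.079.

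**Figure D1:**
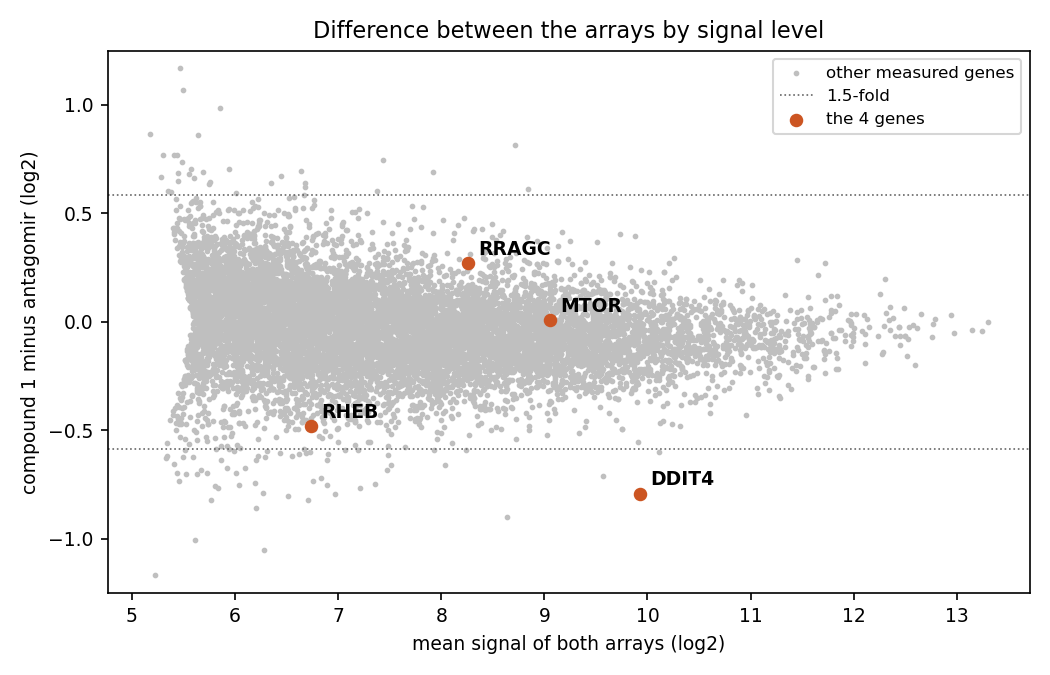
Each point is a measured gene, by its mean signal on both arrays (log2, x axis) and its difference, compound 1 minus antagomir (log2, y axis); dotted lines mark 1.5-fold, and 1 gene outside the drawn range is not shown. DDIT4 (-0.79) lies below the cloud at its signal, RHEB (-0.48) and RRAGC (0.27) lie at its edges, and MTOR (0.0090) lies inside it.

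Of the 4 genes, DDIT4 alone passed 1.5-fold, on the lower side, as did 0.551% of measured genes, while 0.312% were higher past that fold. DDIT4 and RHEB were lower past 1.2-fold, as were 9.48% of all genes, and RRAGC was higher past 1.2-fold, as were 6.20%. Because the genes were chosen on this contrast, nothing is read from these counts. RHEB and RRAGC, which both act in favour of mTOR complex 1, differed in opposite directions, and RHEB minus RRAGC in difference was -0.75 as deposited and -0.81 after quantile normalization.

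**Figure D2:**
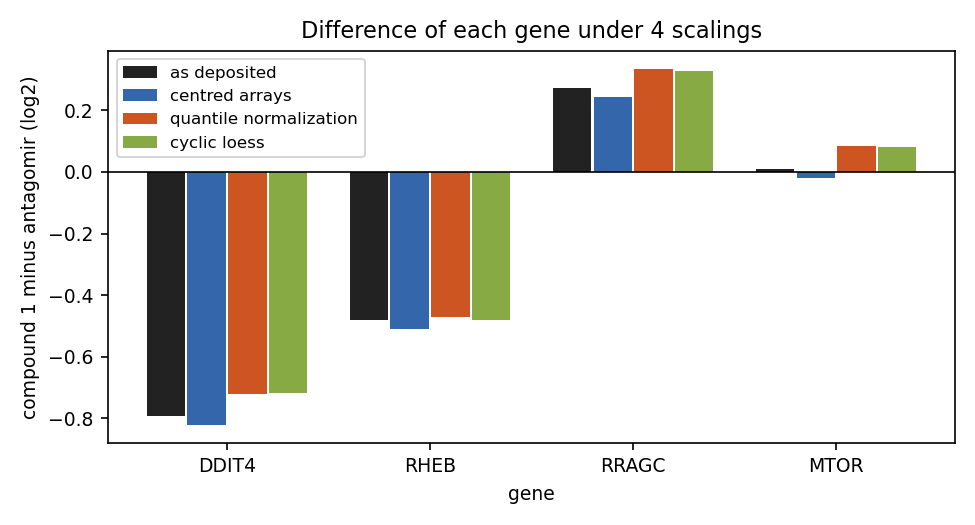
Bars give the difference, compound 1 minus antagomir (log2, y axis), of each gene as deposited and after 3 scalings of the arrays; there are no replicates and so no error bars. DDIT4 ranges from -0.82 to -0.72, RHEB from -0.51 to -0.47 and RRAGC from 0.24 to 0.34, while MTOR changes sign.

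Each paralogue differed less between the arrays than the member it resembles. Because the members were chosen on this contrast, that was likely from the outset, and nothing is read from it. DDIT4L, a relative of DDIT4 that also restrains mTOR complex 1, had 6.16 with the antagomir and 6.21 with compound 1, a difference of 0.048. RHEBL1, the RHEB-like GTPase, had 6.56 and 6.52, a difference of -0.042. RRAGD, the closest relative of RRAGC, had 9.11 and 9.08, a difference of -0.028. RRAGA, a partner of RRAGC in the heterodimer, was at 8.42 and 8.25, a difference of -0.17. RRAGB, the alternative partner, had 6.09 with the antagomir and 6.19 with compound 1, a difference of 0.096. RRAGC thus stood 0.30 above RRAGD, 0.44 above RRAGA and 0.17 above RRAGB in difference. None of these 5 paralogues reached 1.2-fold. The signals of DDIT4L and RRAGB lay not far above the entry level of 5.60.

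**Figure D3:**
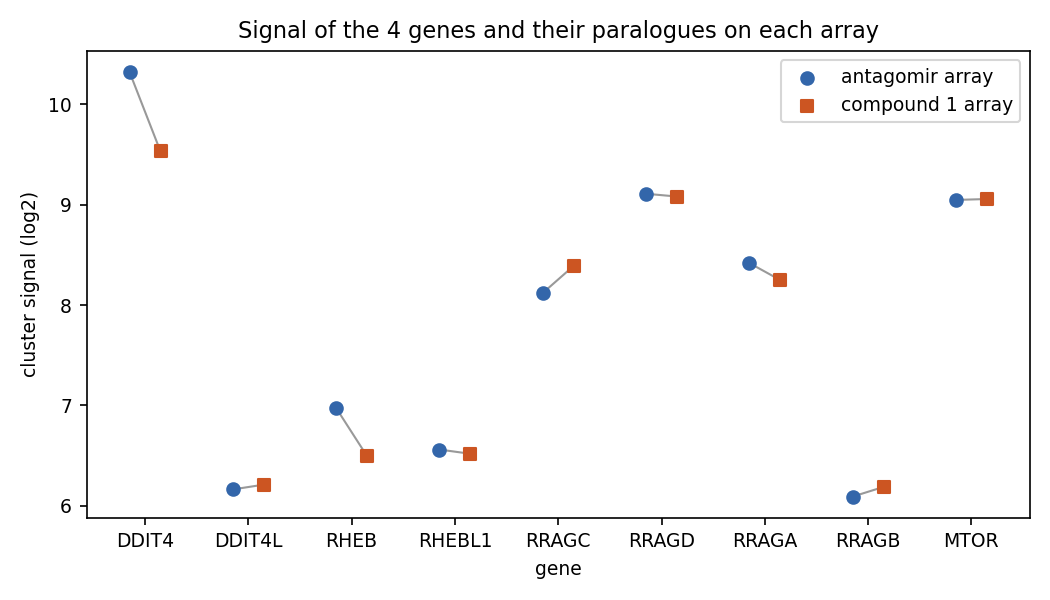
Cluster signal (log2, y axis) of the 4 genes and 5 paralogues on the antagomir array (circles) and the compound 1 array (squares), 1 array each. DDIT4 and RHEB drop from the antagomir to the compound 1 array and RRAGC climbs, while DDIT4L, RHEBL1 and RRAGD stay within 0.048.

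Other genes of the mTOR pathway came from 9 lists by role, with 100 genes besides the 4, of which 59 were measured. Of these, 44 were lower and 15 higher on the compound 1 array (median -0.065), against 57.2% lower and a median of -0.035 over all measured genes. After quantile normalization 29 were lower and 30 higher, with a median of 0.00030, and over all measured genes 48.9% were then lower, with a median of 0.0048. The pathway share of 49.2% thus lay at the share of all genes. These all-gene shares, 57.2% as deposited and 48.9% after quantile normalization, are the background for each count of lower genes that follows. They are not matched to the signal of the list genes. As deposited, the median difference of genes of like signal was 0 for RHEB, -0.071 for RRAGC and -0.086 for DDIT4. With entry at the 75th percentile, 67.1% of all genes were lower, with a median of -0.070. Past 1.2-fold 3 of the 59 pathway genes were lower and 0 higher (cyclic loess left 2 of these, quantile normalization 1), and past 1.5-fold 0. Over all measured genes as deposited, 9.48% were lower and 6.20% higher past 1.2-fold. These 2 shares are the background for each list count past 1.2-fold as deposited below. The background for counts after scaling differs. After quantile normalization 761 of 10877 genes were lower and 736 higher past 1.2-fold. Cyclic loess gave 847 and 645 of 10873, and centring 1344 and 498 of 10878.

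Those 3 were TTI2, LARS1 and PDCD4, of which TTI2 was past 1.2-fold under all 3 scalings. TTI2, part of a complex that helps fold MTOR and related kinases, was at 6.92 with the antagomir and 6.59 with compound 1 (-0.34). LARS1, the leucyl-tRNA synthetase that also senses leucine for the pathway, was at 10.30 and 10.00 (-0.30; -0.23 after quantile normalization). PDCD4, a translation inhibitor that S6 kinase marks for destruction, was at 7.38 and 7.08 (-0.30; -0.26 after quantile normalization, inside 1.2-fold). Also in complex 1, the inhibitor AKT1S1 was at -0.13 and the assembly factor TTI1 at -0.051, and the inhibitor DEPTOR was below the entry level on both arrays.

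Upstream of RHEB, both core subunits of the TSC complex had small differences, TSC1 at -0.15 and TSC2 at -0.038. TXNIP, a binding partner of DDIT4, was at -0.20, and BTRC and CUL4A, of ubiquitin ligases that degrade DDIT4, were at 0.12 and -0.13. In the list of Rag GTPases, Ragulator and folliculin, 8 genes besides RRAGC were measured. They ranged from -0.17 to 0.096, with 4 lower and 4 higher and a median of 0.015 (-0.015 after centring; 2 lower after quantile normalization). FNIP1, a partner of folliculin in the activation of RRAGC and RRAGD, was at 0.070, and folliculin itself (FLCN) at 0.037. The 9 measured genes of GATOR1, GATOR2 and KICSTOR, which relay amino acid supply to the Rag GTPases, ranged from -0.21 (NPRL2, a GATOR1 subunit) to 0.13 (KICS2, of KICSTOR), with 6 lower (4 after quantile normalization). Of 10 measured growth factor and energy input genes, the largest in size was PDPK1, the kinase that activates AKT, at -0.13.

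Downstream, 13 of 16 measured substrates and translation genes were lower and 3 higher, with a median of -0.091 (10 lower after quantile normalization). EIF4EBP1, the translation repressor that mTOR complex 1 inactivates, was at -0.24, from 9.67 to 9.43. GRB10, an adaptor that feeds back on insulin signalling, was at -0.23, and ULK2, an autophagy kinase, at -0.20. Ribosomal protein genes, whose mRNAs are translated under control of mTOR complex 1, were lower in 23 of 27 and higher in 4, with a median of -0.077 (16 lower after quantile normalization). RPS23 (-0.33) and RPL11 (-0.29) were past 1.2-fold as deposited, and 0 were after quantile normalization or cyclic loess.

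Of 15 measured lysosome and autophagy genes that TFEB controls, 8 were lower and 7 higher, with a median of -0.0043 (5 lower after quantile normalization), and 0 passed 1.2-fold as deposited. SQSTM1, an autophagy receptor, was highest at 0.21 and MAP1LC3B, the autophagosome marker, lowest at -0.26; after quantile normalization both passed 1.2-fold, at 0.27 and -0.27. Of 16 measured sterol and lipid genes under SREBP control, 11 were lower and 5 higher, with a median of -0.055 (8 lower after quantile normalization). Past 1.2-fold 4 were lower: INSIG1, the sterol sensor that retains SREBP, at -0.52, SCD, a fatty acid desaturase, at -0.50, the sterol carrier STARD4 at -0.39 and SREBF1, which encodes SREBP-1, at -0.27 (-0.22 after quantile normalization, inside 1.2-fold). SQLE, of sterol synthesis, and FASN, the fatty acid synthase, were at 0.20 and 0.16.

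**Figure D4:**
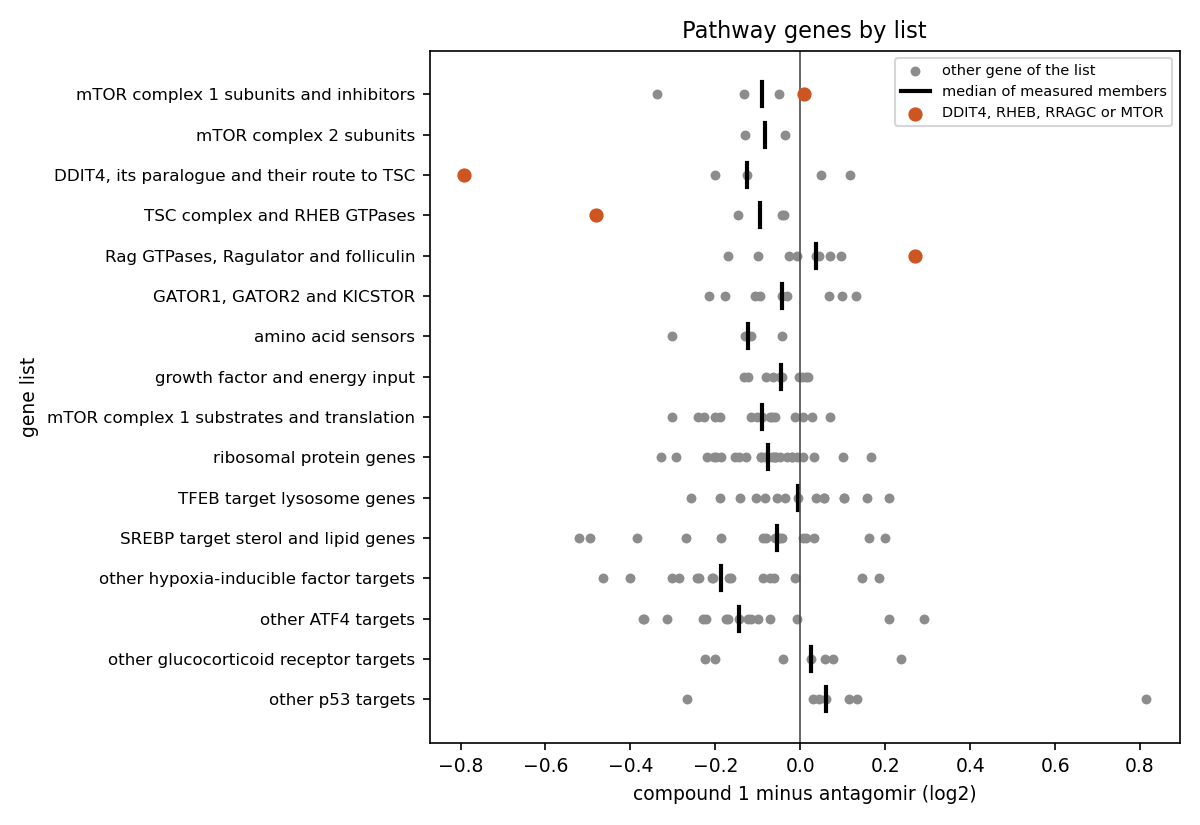
Each grey point is a measured gene of a list and each orange point is DDIT4, RHEB, RRAGC or MTOR, by the difference of compound 1 minus antagomir (log2, x axis); black bars are list medians, members included. DDIT4, RHEB and RRAGC lie outside the other genes of their own lists, and MTOR (0.0090) is the highest of its own. The 4 genes were chosen on this contrast.

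DDIT4 is also a target of several stress regulators, and the other genes of those lists differed from each other. The other hypoxia-inducible factor targets numbered 16 measured, with 14 lower and 2 higher (median -0.19; 13 lower after quantile normalization). The lowest were VEGFA, the angiogenic factor, at -0.47 and KDM3A, a histone demethylase, at -0.40, and both were past 1.2-fold under all 3 scalings. CA12, a carbonic anhydrase, at -0.30 and PGK1, a glycolytic kinase, at -0.29 were past it as deposited but not after quantile normalization. The ATF4 list held 15 other measured genes, among them ATF4 itself (-0.12), which is counted with its targets. Of these 15, 13 were lower and 2 higher (median -0.14, with 12 lower after quantile normalization), and 3 were lower and 1 higher past 1.2-fold. The lower ones were PSAT1, of serine synthesis, at -0.37 and the tRNA synthetases WARS1 at -0.37 and SARS1 at -0.31 (-0.25 after quantile normalization, inside 1.2-fold). The higher one was ATF3, a stress-induced transcription factor, at 0.29. Of 7 other glucocorticoid receptor targets, 3 were lower (2 after quantile normalization) and 4 higher, from KLF9 (-0.22) to CRISPLD2 (0.24). None of these passed 1.2-fold as deposited, and CRISPLD2 did after quantile normalization (0.29) and cyclic loess (0.27). Of 7 other p53 targets, 1 was lower and 6 higher (1 lower after quantile normalization too), with GDF15, a stress cytokine, at 0.81 and TP53I3, an oxidoreductase, at -0.27. The lists of hypoxia and ATF4 targets were known from earlier results to lie on the side of DDIT4, so they are no independent evidence of its direction.

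In the RefSeq order the neighbours of DDIT4 with a named cluster were also compared. ANAPC16, a subunit of the anaphase-promoting complex, was at 8.27 with the antagomir and 7.90 with compound 1 (-0.37), and ASCC1 at 7.43 and 7.20 (-0.22). MCU, the mitochondrial calcium channel on the other side, was at -0.057, and MIR4676 was below the entry level. Next to RHEB, WDR86-AS1 was at 0.25 and MIR3907 at 0.087, and PRKAG2-AS1 and GALNTL5 were below the entry level. Next to RRAGC, AKIRIN1 was at 0.14 and MACF1, a cytoskeletal linker, at -0.19, with MIR3659 and LINC01343 below the entry level. Next to MTOR, SRM, the spermidine synthase, was at -0.090 and EXOSC10, an RNA exosome nuclease, at -0.075. The antisense gene MTOR-AS1 and ANGPTL7 overlap MTOR and were below the entry level, MTOR-AS1 at 3.61 with the antagomir and 3.70 with compound 1, and ANGPTL7 at 5.42 and 5.56.

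By distance over the signals on both arrays, 2 values per gene, the nearest protein-coding genes were ELOF1, SMC4 and MT1X for DDIT4, USP40, GTPBP8 and RPGRIP1L for RHEB, BLVRB, TCF20 and SQSTM1 for RRAGC, and PDZK1IP1, YIF1A and NFKB2 for MTOR. Those of DDIT4 lay at distances of 0.29 to 0.32 (log2), and those of the other members at 0.014 to 0.063. The distances use the same 2 values that give the difference, so the lack of a close neighbour for DDIT4 is no separate result. After quantile normalization SMC4 came before ELOF1. This likeness sets signals of different probes side by side and is a description of signal values only.

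The line label was compared with marker genes. Of 12 markers of mesenchymal-like MDA-MB-231 cells, 7 were measured, among them VIM and AXL, with signals of 9.08 to 12.78 with the antagomir and 9.04 to 12.77 with compound 1. The hormone receptor genes ESR1 and PGR were below the entry level on both arrays, as were the leukocyte genes CD14 and LYZ and the endothelial gene PECAM1. Of 10 listed luminal epithelial markers, 8 had a named cluster and 6 were measured, the transcription factor genes GATA3 and FOXA1, EPCAM, and the keratins KRT8, KRT18 and KRT19. KRT18 was at 11.28 and 11.18, KRT19 at 9.04 and 8.78, and KRT8 at 7.80 and 7.81. GATA3 was at 7.27 and 7.44, EPCAM at 6.91 and 7.05, and FOXA1 at 5.41 and 5.66, so luminal markers were not absent from these arrays. VWF and KDR of endothelium and PLIN1 of adipocytes reached the entry level, with signals between 5.74 and 7.03 on both arrays, and their part in the results was not tested.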

How the data were processed

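The authors deposited 1 log2 signal per transcript cluster and array; its base was inferred from the range (0.37 to 14.20), and for background correction, normalization and genome build the sources used here give nothing. Samples were pooled before hybridisation per the series design, which does not say whether as cells or as RNA, and 5 µg of total RNA was labelled per the labels. All 16098 named clusters of 53617 matched a RefSeq gene (GRCh38.p14). A cluster entered when its higher value reached the 50th percentile of mean signal (5.60), which left 10887 genes, each shown by the brightest of its entering clusters (highest mean). Differences are compound 1 minus antagomir, with no further scaling. Array medians were 5.59 and 5.62, and the number of arrays limits precision. The 4 genes, the lists and the promoter motifs were chosen with earlier results of these data known; named genes were the members, paralogues, list genes past 1.2-fold or with the largest differences, 2 neighbours a side and 3 nearest genes, and the other genes named from the lists were chosen after their values were seen. A simulation with known shifts took differences by direct subtraction, so recovering the shifts was all but fixed in advance. It checked the count of lower genes and the median for 1 list only. The scalings, filters, cluster choices, ranks and motif search were not checked in it. Cyclic loess was run in limma 3.58.1 (R 4.3.3), and the rest in Python 3.11.15 with pandas 2.3.3, numpy 2.4.6 and matplotlib 3.10.9. Alternatives were 3 scalings, 3 filters, 2 cluster choices, a 2-fold threshold, a protein-coding background and, chosen after seeing the data, lists without the 4 genes.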

Additional observations from a re-analysis of the deposited data

How the results depend on the processing

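DDIT4, RHEB and RRAGC kept their direction in every alternative run, from -0.82 to -0.72 for DDIT4, -0.51 to -0.47 for RHEB and 0.24 to 0.34 for RRAGC, and MTOR ran from -0.020 to 0.084. Filters and cluster choices could not change these values, since each gene has 1 cluster; with entry at the 75th percentile RHEB was no longer measured. The number of genes below DDIT4 ran from 3 at that entry to 34 with no filter, and was 24 after cyclic loess. With no filter 14884 genes entered, and with entry at the 75th percentile 6465 did. Where each array had to reach the entry level, 10371 entered. Counts under these filters are out of these numbers. Counts over all genes followed the filter: past 1.5-fold, 135 were lower and 202 higher with no filter, 21 and 6 with entry at the 75th percentile, and 13 were higher where each array had to reach the entry level. Past 2-fold 3 were lower and 3 higher. Past 1.2-fold, 638 were lower and 163 higher with entry at the 75th percentile, and 1562 higher with no filter. List medians here include the 4 genes, so that of the Rag list is 0.037 and not the 0.015 given above without RRAGC. Of 16 list medians, 4 changed sign after quantile normalization (GATOR and KICSTOR, growth factor input, TFEB targets and SREBP targets) and 3 of these after cyclic loess. The median of all genes also changed sign after quantile normalization (from -0.035 to 0.0048). The glucocorticoid list (0.025) turned to -0.0046 after centring and to -0.0076 with no filter or where each array had to reach the entry level, and the Rag list (0.037) to -0.0075 with entry at the 75th percentile; the cause was not tested. No paired analysis was possible because the treatments have 1 array each.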
